A study of Mus musculus with 6 samples.

Results

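The oligoadenylate synthetase (OAS) family was followed in immortalized mouse embryonic fibroblasts with and without the histone acetyltransferase GCN5. The members were taken by symbol: Oas1a, Oas1b, Oas1c, Oas1g, Oas2, Oas3, Oasl1 and Oasl2. Of these 8 genes, 7 had a probe set annotated to them alone, 1 each, among 18193 genes named on the array. Oas1g had none and was not analysed here. Each probe set combines several short oligonucleotides that read the same transcript.

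All cells lacked PCAF, the close relative of GCN5. The labels give 3 arrays of PCAF-/-;GCN5+/- cells and 3 of PCAF-/-;GCN5-/- cells. The design describes a conditional GCN5 allele and retroviruses carrying Cre recombinase or the vector alone, with puromycin used for selection. The array labels do not name the virus. Here the GCN5-/- cells are taken to be those given Cre and the GCN5+/- cells those given the empty vector, so effects of virus and genotype cannot be told apart. Each group holds 2 duplicate RNAs of cell line A, here A1 and A2, and 1 RNA of line B, which was immortalized separately. Much of the error estimate thus comes from duplicate RNAs of line A, and line B has 1 array per genotype.

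OAS enzymes bind double-stranded RNA, a sign of viral infection, and then join ATP into short chains with 2'-5' links, called 2-5A. The 2-5A acts as a second messenger of the antiviral response. The genes are classical interferon-stimulated genes: interferon signals through transcription factors, STAT2 and IRF9 among them, that bind the interferon-stimulated response element (ISRE) in promoters. In the mouse the Oas1 gene is present as a run of neighbouring copies beside Oas2 and Oas3, and Oasl1 and Oasl2 form a pair elsewhere on chromosome 5.

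The upstream sequences are shown first because 3 members share an identical ISRE-containing stretch. They are the 150 bases before the RefSeq transcription start in GRCm38.p6, 5' to 3' on the strand of the gene, with bases in an ISRE core match in capitals. Oas1a lies at chr5:120907526-120907675, minus strand; Oas1g at chr5:120887614-120887763, minus strand; Oas1c at chr5:120812515-120812664, minus strand. Oas3 lies at chr5:120777660-120777809, minus strand, and Oasl2 at chr5:114896784-114896933, plus strand.
Oas1a: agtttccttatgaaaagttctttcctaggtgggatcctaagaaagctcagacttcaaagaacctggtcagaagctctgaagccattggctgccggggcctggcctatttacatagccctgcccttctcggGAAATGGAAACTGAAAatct
Oas1g: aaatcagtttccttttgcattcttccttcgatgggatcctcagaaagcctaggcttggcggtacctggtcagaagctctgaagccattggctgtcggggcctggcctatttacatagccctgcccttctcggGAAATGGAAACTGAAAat
Oas1c: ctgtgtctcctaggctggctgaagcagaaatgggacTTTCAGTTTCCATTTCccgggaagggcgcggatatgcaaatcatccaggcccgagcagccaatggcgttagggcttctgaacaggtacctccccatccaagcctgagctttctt
Oas3: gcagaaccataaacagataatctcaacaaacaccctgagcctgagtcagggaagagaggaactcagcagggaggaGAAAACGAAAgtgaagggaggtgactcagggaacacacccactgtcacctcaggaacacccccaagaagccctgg
Oasl2: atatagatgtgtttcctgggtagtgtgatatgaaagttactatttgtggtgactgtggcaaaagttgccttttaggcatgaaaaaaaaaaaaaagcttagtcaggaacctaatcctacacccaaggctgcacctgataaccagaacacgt

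The ISRE core was searched as GAAANNGAAA on both strands of windows from 250 bases before to 50 bases after the start. RefSeq windows were matched for 6 members, and 4 of them held the core. Oas1a had overlapping matches that begin at -20 and -14 from the start, and Oas1g at -18 and -12. Oas1c had them on the opposite strand at -114 and -108, and Oas3 had 1 match at -75. In Oas1a, Oas1g and Oas1c the overlapping matches form the same 16 bases, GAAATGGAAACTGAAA, read on the gene's strand in Oas1a and Oas1g and on the opposite strand in Oas1c. Of 32851 promoter windows of this length, 7 held these 16 bases (0.0213%), belonging to 5 genes: these 3, Apol9a and Apol9b. The whole windows of Oas1a and Oas1g were 85.3% identical when aligned. Oasl1 and Oasl2 held no match, which says only that these letters are not in their windows.

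For comparison, 3.44% of all windows held the ISRE core. By gene, the core was found for 59 of 619 genes called higher in GCN5-/- arrays, at a limma adjusted p under 0.05 (9.53%), 17 of 549 called lower (3.1%) and 274 of 8984 tested and not called (3.05%). The higher group includes members of the OAS family, and these shares are given as a description. The gamma-activated site core, TTCNNNGAA, which reads the same on both strands, was found in Oas1a at -98 and in no other of the 6 member windows, against 8.3% of all windows. The map of motif matches sets these positions side by side.

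**Figure D1:**
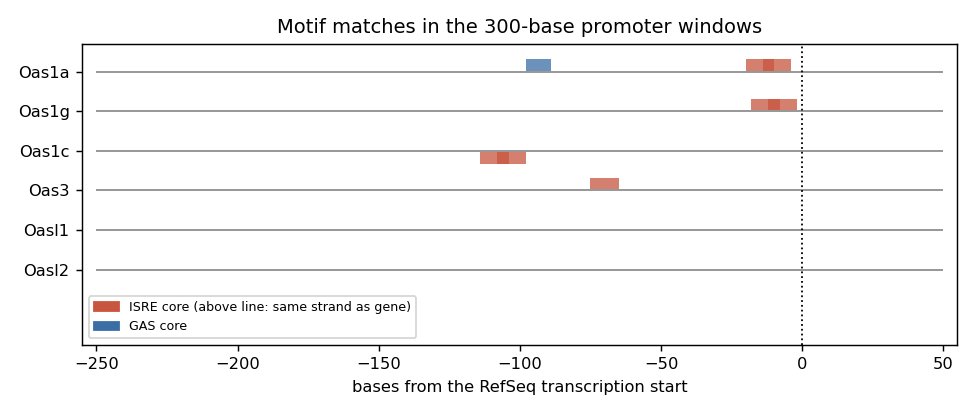
Motif matches in the promoter windows of 6 members, by distance in bases from the RefSeq transcription start (dotted line). Red boxes are ISRE core matches, above the line on the gene's strand and below it on the opposite strand, and the blue box is the gamma-activated site core; Oas1a and Oas1g have overlapping ISRE matches next to the start, and Oasl1 and Oasl2 have none.

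The arrays were checked first. Array medians lay between 7.40 and 7.45 on the log2 scale. Of the 3 Kat2a probe sets, which read the GCN5 gene, 1422972_s_at stood at 9.31, 10.07 and 11.51 in GCN5+/- cells (A1, A2, B) against 7.97, 7.86 and 7.75 in GCN5-/- cells. It fell by 2.44 ± 0.37 (log2, SE; limma adjusted p = 0.00864). Probe set 1422971_at fell by 0.75 ± 0.13 (limma adjusted p = 0.0157). The brightest of the 3, 1426783_at (group means 11.22 in GCN5+/- and 11.40 in GCN5-/-), was not called (0.18 ± 0.16, limma adjusted p = 0.575). It was higher in GCN5-/- cells in pairs A1 and A2 (0.56 and 0.38) and lower in pair B (-0.41). Where these probe sets lie relative to the deleted part was not analysed here. Of 10 fibroblast markers listed, 5 were called lower by brightest probe set, where 4.31% of all probe sets were called lower. The brighter probe set of Col1a1 had group means of 14.63 and 14.28. Thy1 was dim in line A, at 6.02 to 6.21, and read 9.54 and 8.60 in GCN5+/- B and GCN5-/- B. The group means of the 2 probe sets of the leukocyte marker Ptprc lay between 4.14 and 4.67. Csf1r was brighter, with 1419872_at at 9.29, 9.49 and 8.22 in GCN5+/- (A1, A2, B) and 9.78, 9.97 and 8.34 in GCN5-/-. It was not called (limma adjusted p = 0.108), and the other Csf1r probe sets were lower in pair B (-0.13 and -0.18). Cd68 was higher in each pair (0.56, 0.16 and 0.43) and not called (limma adjusted p = 0.0606). Lyz2 and Fcer1g changed by -0.05 and -0.03. Over 10 leukocyte and macrophage genes measured, 6 passed the level filter and 1 was called, Cd53, a tetraspanin (group means 9.26 in GCN5+/- and 10.12 in GCN5-/-). Their summed linear signal ran from 1580 to 2350 in GCN5+/- arrays and from 1940 to 3260 in GCN5-/- arrays, and its part in the results below was not tested. Among plasmacytoid, B and T cell markers, 1 of 3 that passed was called higher, against 4.2% of all probe sets. It was Bst2, itself an interferon-stimulated gene. The summed signal of these markers ran from 954 to 1310 in GCN5+/- arrays and from 2950 to 8480 in GCN5-/- arrays. No endothelial or epithelial marker was called by limma.

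In GCN5-/- arrays the measured members of the OAS family were higher than in the matched GCN5+/- arrays. All 7 were higher in each of the 3 pairs A1, A2 and B, a pattern that 23.4% of tested probe sets showed. Of the 6 that passed the level filter, a mean log2 signal of at least 6.80, all 6 rose at a limma adjusted p under 0.05 with cell line as a covariate; 4.2% of the 27022 probe sets tested were called higher. Oas3 passed that filter only through its GCN5-/- arrays. When all 45037 probe sets were tested without the filter, 7 of 7 members were called higher, against 2.24% of probe sets. The median change of the 7 was 1.31 on the log2 scale, and that of all tested probe sets was -0.01. These are bulk RNA measurements, so more cells expressing a gene and more RNA per cell cannot be told apart. Without a line term in the fit, 0 of the 6 were called by limma (adjusted p from 0.0595 to 0.318), and 6 had an unadjusted p under 0.05, as had 11.3% of probe sets.

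Signals of the 3 GCN5-/- arrays lay above all 3 GCN5+/- arrays for 6 members, and 8.2% of tested probe sets did so. Oas1c was the exception, since its GCN5-/- B array (6.24) lay between the GCN5+/- arrays A1 (6.21) and A2 (6.28). The plot of signals by array shows the separation and the lower position of line B in most GCN5-/- groups.

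**Figure D2:**
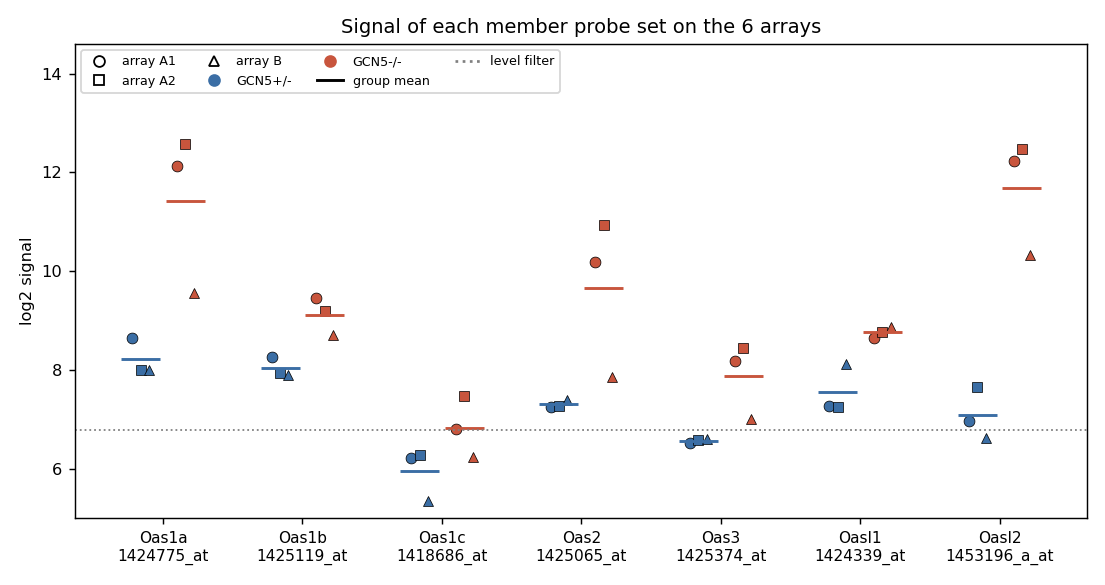
Log2 signal (vertical axis) of the 7 member probe sets on the 6 arrays, GCN5+/- in blue and GCN5-/- in red, with circles, squares and triangles for arrays A1, A2 and B and bars for group means (n = 3). The red points lie above all blue points for every member but Oas1c, and the red triangle of line B is lowest in its group for all but Oasl1; the dotted line is the level filter at 6.80.

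Oas1a encodes a small synthetase that makes 2-5A. Its probe set 1424775_at had log2 signals of 8.65, 8.00 and 8.00 in GCN5+/- cells (A1, A2, B) and of 12.13, 12.58 and 9.56 in the matching GCN5-/- arrays. The groups did not overlap, and GCN5-/- B stood apart from the line A arrays. The rise was 3.21 ± 0.45 (log2, SE; 95% interval 2.18 to 4.23; limma adjusted p = 0.00596), or 9.22-fold. It was 11.1-fold and 23.9-fold in pairs A1 and A2 and 2.96-fold in pair B. It ranked 14th among the rises of all tested probe sets. Because Oas1g is a close copy without a probe set of its own here, signal from it at this probe set was not tested.

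Oas1b is known for restricting flaviviruses in mice with an intact copy. The RefSeq table of GRCm38.p6, from C57BL/6J, lists it as a transcribed pseudogene, and the labels do not give the strain of these cells. Its probe set 1425119_at read 8.27, 7.95 and 7.91 in GCN5+/- and 9.46, 9.21 and 8.71 in GCN5-/- A1, A2 and B. The arrays did not overlap, and the difference was similar in the line A pairs. The rise was 1.08 ± 0.14 (log2, SE; interval 0.76 to 1.40; limma adjusted p = 0.00469), with 1.18, 1.26 and 0.80 in pairs A1, A2 and B.

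Oas1c, another copy of the Oas1 group, was the dimmest member. Its probe set 1418686_at read 6.21, 6.28 and 5.35 in GCN5+/- and 6.81, 7.47 and 6.24 in GCN5-/- A1, A2 and B. It lay below the level filter. Within each line the GCN5-/- arrays were higher, while across lines the groups overlapped. Fitted over all probe sets, the change was 0.89 ± 0.16 (log2, SE; interval 0.54 to 1.24; limma adjusted p = 0.0168). That call was lost without GCN5+/- A1 (adjusted p = 0.0736) and without GCN5+/- A2 (adjusted p = 0.0550), with line as a random block (adjusted p = 0.269) and without a line term (adjusted p = 0.564).

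Oas2 encodes a larger synthetase built of repeated OAS units. Its probe set 1425065_at read 7.26, 7.28 and 7.39 in GCN5+/- cells (A1, A2, B) against 10.19, 10.93 and 7.86 in GCN5-/- cells. The GCN5+/- arrays were nearly level, and the rise was carried mostly by line A. The fitted rise was 2.35 ± 0.50 (log2, SE; interval 1.20 to 3.50; limma adjusted p = 0.0279). Pairs A1 and A2 differed by 2.93 and 3.65 and pair B by 0.47, less than the 0.74 between the GCN5-/- duplicates. Leaving out GCN5+/- A1, GCN5+/- A2, GCN5-/- A1 or GCN5-/- A2 ended the call (adjusted p = 0.118, 0.0899, 0.0839 and 0.0962). So did averaged line A duplicates (adjusted p = 0.146), line as a random block (adjusted p = 0.0986) and a fit without the variance trend (adjusted p = 0.0508).

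Oas3 encodes the largest synthetase, which responds to long double-stranded RNA. Its probe set 1425374_at read 6.53, 6.58 and 6.61 in GCN5+/- and 8.18, 8.45 and 7.01 in GCN5-/- A1, A2 and B. All GCN5-/- arrays were above all GCN5+/- arrays, and line B was again nearest to them. The rise was 1.31 ± 0.25 (log2, SE; interval 0.74 to 1.88; limma adjusted p = 0.0189), with 1.65, 1.87 and 0.40 in the 3 pairs. The call ended without GCN5+/- A1, GCN5+/- A2, GCN5-/- A1 or GCN5-/- A2 (adjusted p = 0.0884, 0.0657, 0.0650 and 0.0760). It also ended with averaged line A duplicates (adjusted p = 0.111) and with line as a random block (adjusted p = 0.0726).

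Oasl2 encodes an OAS-like protein that carries ubiquitin-like domains and, in the mouse, still makes 2-5A. Its probe set 1453196_a_at read 6.97, 7.66 and 6.63 in GCN5+/- and 12.23, 12.48 and 10.32 in GCN5-/- A1, A2 and B. Every GCN5-/- array was far above the GCN5+/- arrays, in line B as well. The rise was 4.59 ± 0.28 (log2, SE; interval 3.95 to 5.24; limma adjusted p = 0.000144), or 24.2-fold, the 2nd largest of all tested probe sets. It was 38.4-fold, 28.3-fold and 13.0-fold in pairs A1, A2 and B, and it ranked 3rd in pair B.

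Oasl1, the neighbour of Oasl2, encodes an OAS-like protein without synthetase activity, known as a brake on the translation of Irf7. Its probe set 1424339_at read 7.28, 7.26 and 8.12 in GCN5+/- and 8.65, 8.78 and 8.87 in GCN5-/- A1, A2 and B. The GCN5-/- arrays lay close together in both lines, and GCN5+/- B was above the other GCN5+/- arrays. The rise was 1.21 ± 0.15 (log2, SE; interval 0.88 to 1.55; limma adjusted p = 0.00322), with 1.37, 1.52 and 0.75 in the 3 pairs.

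**Figure D3:**
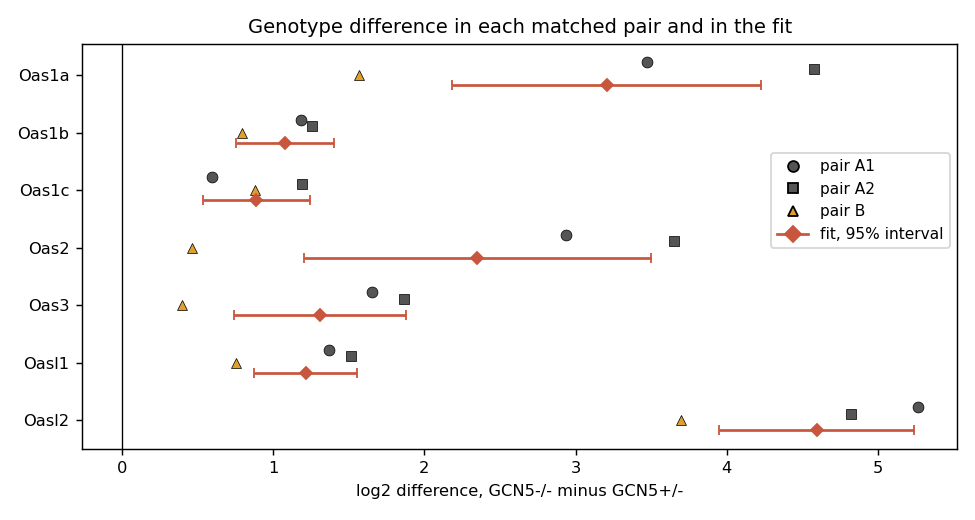
Log2 difference, GCN5-/- minus GCN5+/- (horizontal axis), of each member in pair A1 (circle), pair A2 (square) and pair B (triangle), with the fitted change and its 95% interval in red. All 21 differences are above 0, and pair B is the smallest of the 3 for every member but Oas1c.

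The change was smaller in line B than the mean of line A for all 7 members. Within line A, all 6 members that passed the filter were called (limma adjusted p up to 0.00481), and 4.2% of probe sets were called higher there. The difference between the lines, line B minus line A, was tested as an interaction that has 2 residual degrees of freedom, both from the line A duplicates. It was -2.83 ± 0.39 (log2, SE) for Oas2, -2.46 ± 0.40 for Oas1a, -1.36 ± 0.24 for Oas3 and -1.35 ± 0.38 for Oasl2. The limma adjusted p-values were 0.0849, 0.117, 0.137 and 0.380. For Oasl1 it was -0.69 ± 0.22 (adjusted p = 0.452), for Oas1b -0.43 ± 0.28 (interval -1.08 to 0.22) and for Oas1c -0.01 ± 0.35 (interval -0.81 to 0.79). Thus 0 of 6 members passed by limma, against 0.0481% of probe sets, and 5 of 6 were smaller in line B at an unadjusted p under 0.05, as were 3.9% of probe sets. Leaving out 1 line A array gave 2 or 3 called members: Oas1a and Oas2 each time, Oasl2 without GCN5+/- A2 and Oas3 without GCN5-/- A1, with 0.204% to 0.385% of probe sets called in those fits.

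**Figure D4:**
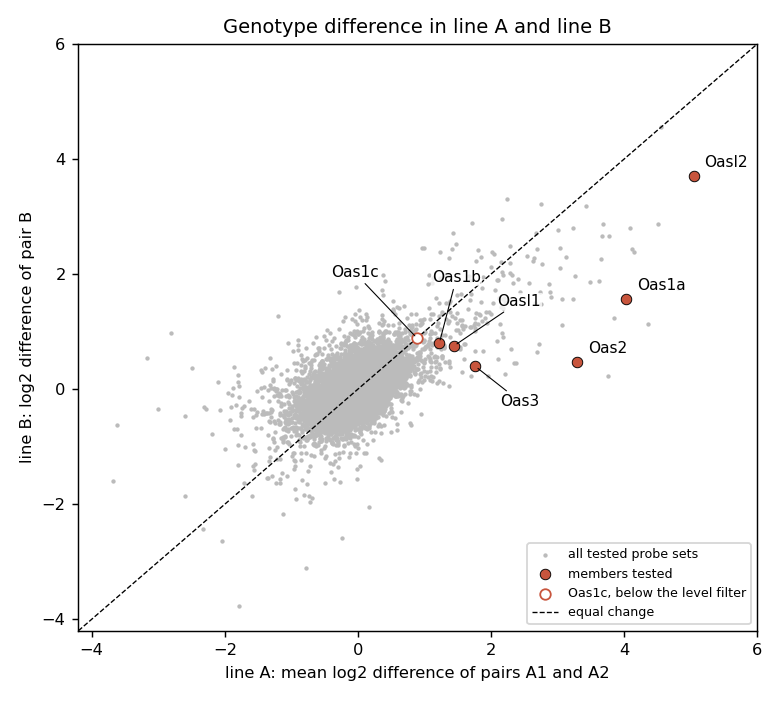
Log2 difference, GCN5-/- minus GCN5+/-, as the mean of the 2 line A pairs (horizontal) and in the line B pair (vertical), for 27022 tested probe sets (grey), the 6 members tested (red) and Oas1c (open). The members lie on or below the dashed line of equal change, with Oas2 farthest below it.

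The order of levels was the same for Oas1a, Oas1b, Oas2, Oas3 and Oasl2: GCN5-/- line A highest, then GCN5-/- line B, then the GCN5+/- arrays. Line B minus line A within GCN5+/- arrays was 0.12 for Oas2, 0.06 for Oas3, -0.20 for Oas1b and -0.33 for Oas1a, none called (limma adjusted p from 0.520 to 0.874). For Oasl2 it was -0.69 (limma adjusted p = 0.141). Oasl1 was called, at 0.84 higher in line B (limma adjusted p = 0.00999), where 15.8% of probe sets were called. Over both genotypes, 2 of 6 members differed between lines, against 23.1% of probe sets: Oas1a (-1.56 ± 0.47, SE) and Oasl2 (-1.36 ± 0.30) were lower in line B (limma adjusted p = 0.0473 and 0.0135). The count was 1 without GCN5+/- A1 or GCN5-/- A1, 2 without GCN5-/- A2 and 3 without GCN5+/- A2. With GCN5+/- B or GCN5-/- B left out, line B holds 1 array. The line difference is then read within the genotype of that array alone, not over both. Oas1c, fitted over all probe sets, was also lower in line B (-0.90 ± 0.17, limma adjusted p = 0.00725); within GCN5+/- arrays its difference was -0.89 (limma adjusted p = 0.0593).

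Of the other genes of the 2-5A system, Abce1 and Pde12 had called probe sets. Of 9 genes listed, 6 had a probe set (Abce1, Pde12, Akap7, Oas1e, Oas1f and Oas1h), and 1 of the 5 whose brightest probe set passed the filter rose, where 4.2% of all probe sets were called higher. By probe set, 3 of the 9 that passed rose. The gene called by its brightest probe set was Abce1, a ribosome recycling factor, by 0.31 ± 0.07 (log2, SE; limma adjusted p = 0.0405) at 1416015_s_at. Its probe set 1416014_at changed by as much, 0.31 ± 0.08, and was not called (limma adjusted p = 0.0559). The remaining Abce1 probe set, 1442071_at, was dimmer and did not rise (-0.02 ± 0.16, limma adjusted p = 0.966). Pde12, a phosphodiesterase that degrades 2-5A, rose at 2 of its 3 probe sets, by 0.50 ± 0.11 and 0.43 ± 0.10 (limma adjusted p = 0.0303 and 0.0381), while its brightest gave 0.33 ± 0.10 (limma adjusted p = 0.0877). The median change of the 5 genes was 0.13.

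Oas1e, Oas1f and Oas1h, further copies of the Oas1 group, were not called. Oas1e read 8.70, 8.23 and 8.68 in GCN5+/- and 8.69, 8.62 and 8.69 in GCN5-/-, which is a difference of 0.13 ± 0.13 (log2, SE; limma adjusted p = 0.617). Oas1f read 7.13, 7.05 and 7.03 against 7.23, 7.15 and 7.14, a change of 0.11 ± 0.09 (limma adjusted p = 0.529). Oas1h lay below the filter and changed by 0.03 ± 0.11 (limma adjusted p = 0.944). In the RefSeq gene order, Oas1f and Oas1h lie between Oas1b and Oas1g, and Oas1e between Oas3 and Oas1c, so copies that rose and copies that were not called are interspersed along the cluster. The 6 genes of the 2-5A list with a promoter window were Abce1, Pde12, Akap7, Enpp1, Oas1f and Oas1h, and 0 held the ISRE core. Oas1e had no window and was not searched.

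Genes flanking the OAS clusters were read in the same fit. The 5 nearest protein-coding genes with a probe set were taken on each side of the Oas1 to Oas3 cluster and of the Oasl pair, a choice made after the members' values were seen. Of the 10 around the Oas cluster, 9 passed the filter and 0 were called. Of the 10 around the Oasl pair, 9 passed and 1 was called, Mlec, which fell by 0.59 ± 0.07 (log2, SE; limma adjusted p = 0.00242); 4.31% of all probe sets were called lower. Among the neighbours outside the call, Rpl6 had a change of -0.11 ± 0.03 (limma adjusted p = 0.0583) and Ptpn11 one of 0.16 ± 0.05 (limma adjusted p = 0.113).

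Genes listed under double-stranded RNA sensing, some of which share their ligand with the OAS proteins, mostly rose with the members. The list was Ifih1, Ddx58, Dhx58, Mavs, Eif2ak2, Adar, Tlr3 and Zbp1. By brightest probe set, 7 of 8 genes rose and 0 fell, with a median of 1.77; 4.2% of all probe sets were called higher and 4.31% lower. Zbp1, a sensor of Z-form nucleic acid, rose by 2.98 ± 0.47 (log2, SE) at 1429947_a_at, which passed the level filter only through its GCN5-/- arrays (group means 6.74 and 9.73). The other Zbp1 probe set rose by 1.73 ± 0.34 (limma adjusted p = 0.0210). Dhx58 rose by 2.42 ± 0.34 and Ifih1, which encodes MDA5, by 2.19 ± 0.15. The adaptor gene Mavs was not called, at 0.07 ± 0.10 (limma adjusted p = 0.732).

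Of genes that carry the interferon signal to OAS promoters, Irf7, Irf9 and Stat2 rose, while Jak1, Tyk2, Ifnar2 and Irf3 were not called. Of 10 genes listed, 9 had a probe set, 8 passed the filter and 3 rose by brightest probe set, against 4.2% of all probe sets called higher. Irf7 read 7.43, 7.47 and 7.34 in GCN5+/- and 10.05, 10.58 and 9.17 in GCN5-/- A1, A2 and B, a rise of 2.52 ± 0.22 (log2, SE). Irf9 read 8.87, 9.10 and 8.56 against 10.99, 11.06 and 10.91, a rise of 2.14 ± 0.11 (log2, SE), with 2.12, 1.96 and 2.35 in the 3 pairs. Stat2 rose by 1.95 ± 0.14 (log2, SE) at its brightest probe set. Ifnb1, the interferon beta gene, lay below the filter at 6.36, 6.14 and 6.19 in GCN5+/- and 6.33, 6.35 and 6.33 in GCN5-/- arrays, a change of 0.11 ± 0.10 (limma adjusted p = 0.665). Of the receptor gene Ifnar1, probe set 1442222_at fell by 0.42 ± 0.10 (limma adjusted p = 0.0399), and its other probe set was not called (limma adjusted p = 0.127).

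**Figure D5:**
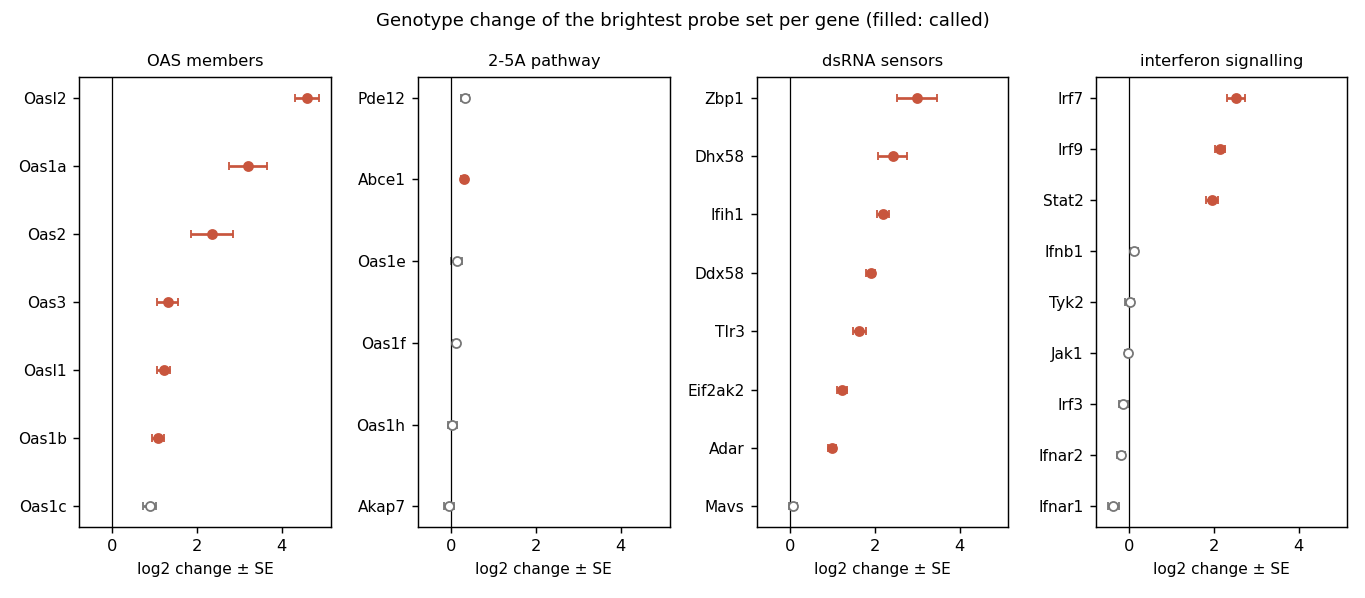
Log2 change, GCN5-/- minus GCN5+/- (horizontal axis, ± SE of the fit), of the brightest probe set per gene for the OAS members and 3 related lists; filled red points were called at an adjusted p under 0.05 among probe sets that passed the level filter. On the right lie the members, Irf7, Irf9 and Stat2, and 7 of the 8 genes listed under double-stranded RNA sensing. Oas1e, Oas1f, Oas1h, Jak1 and Tyk2 lie near 0, and Ifnar1 lies to the left at -0.37.

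The genes whose differences over the 3 pairs were closest to a member's, by root mean square distance among 12620 other genes, differed between members. For Oas1a they were Zbp1 (distance 0.34 on the log2 scale), Rsad2 (0.61) and Ifit1 (0.68). For Oas2 they were Psmb8 (0.51), Dhx58 (0.61) and Zbp1 (0.64), and for Oas3 Pla1a (0.20), Psmb9 (0.22) and Ifi27l2a (0.23). For Oasl2 the nearest was Usp18 at 0.66, with 4.57, 4.53 and 4.55 in the 3 pairs, followed by Ifit3 (0.94) and Iigp1 (1.14). Oas1b was nearest to Tuba8 (0.05), Rassf6 (0.06) and Itgb7 (0.06), and Oasl1 to Cd274 (0.11), Itgb7 (0.13) and Trim25 (0.14).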

How the data were processed

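RNA of 6 samples was measured on 1 array each. The authors deposited 1 log2 signal for each probe set and sample; that the scale is log2 follows from the range of the values. The submitters' processing notes list MAS5 (6 samples) and Partek (1 sample) without saying what each did, and the normalization is not given in the sources used here.

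Groups, lines and replicates follow the sample titles. After 64 control probe sets were left out, 45037 remained, of which 34945 have 1 symbol, updated through the RefSeq table of GRCm38.p6. The genotype effect was fitted over all 6 arrays with limma 3.58.1 in R 4.3.3 (lmFit, eBayes with a variance trend), and a term for cell line. The level filter, a mean signal no lower than the 40th percentile of all, left 27022 probe sets. Benjamini-Hochberg adjustment ran over all tested, and an adjusted p under 0.05 was called. Oas1c and other dim probe sets were read from the fit over all probe sets. The fits were tested on simulated data with errors independent between arrays. Such data cannot show what the use of duplicate RNAs of line A does to the fits. Named genes are every member probe set, the listed pathway genes and markers, and the 3 genes with the nearest pair differences per member. Promoters came from RefSeq tables and were aligned with Biopython 1.88. Members and lists were chosen with earlier results of these data known.

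The titles pair arrays by line. Deviations from group means correlated at 0.714, 0.727 and 0.846 for A1, A2 and B, and at 0.509 and 0.443 for the crossed line A arrays, which share the line but not the number.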

Additional observations from a re-analysis of the deposited data

How the results depend on the processing

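Under 13 to 15 alternative settings per member, 78 of 101 recomputed changes kept their direction and their side of the threshold. A further 23 kept their direction and lost the call, and 0 reversed. Leaving out either line B array gave each member the same change as the fit within line A. The line term then takes up the remaining line B array, so these settings are not separate checks and the tally repeats them. The count of called members was 0 without a line term, 6 with the replicate block and 7 without the level filter. It was 4 with line as a random block, with averaged line A duplicates and without any 1 of the line A arrays. Without the variance trend it was 5. A 60th percentile filter, which Oas3 and Oasl1 did not pass, also gave 4. The replicate block changed no member's call (limma adjusted p = 0.0413 for Oas2, the highest). Of the 23 lost calls, 8 were of Oas2, 7 of Oas3 and 4 of Oas1c. Oas1a, Oas1b, Oasl1 and Oasl2 each lost theirs only without a line term, among the settings run. The count of members that differ between lines was 1 with quantile normalization and 1 without the variance trend. It ran from 1 to 3 with 1 line A array left out, lowest without GCN5+/- A1 or GCN5-/- A1 and highest without GCN5+/- A2. The count for the interaction ran from 2 to 3 with 1 line A array left out, fits with 1 residual degree of freedom; leaving out a line B array leaves no interaction to test. Over all probe sets, 1135 were called higher in GCN5-/- arrays, against 50 without a line term, 294 with line as a random block, 387 with averaged line A duplicates and 348 to 1120 with 1 array left out. The causes were not tested. The number of arrays, with 1 per genotype in line B, limits the precision. At the dim end, GCN5+/- signals of Oas1c and Oas3 lie on average below the level filter.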
